A study of Mus musculus with 8 samples.

Results

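Toll-like receptors are the sensors with which macrophages, dendritic cells, neutrophils and some stromal and epithelial cells detect microbial products and products of damaged cells. The receptors at the cell surface bind lipids and proteins of microbes, whereas those of the endosome bind nucleic acids and reach it with the help of the chaperone encoded by Unc93b1. Signals pass through the adaptors MyD88 and TRIF to kinases of the IRAK and TBK1 families, and from there to NF-kB, which drives inflammatory cytokines, and to interferon regulatory factors, which drive interferon genes. The 10 genes described here are 4 surface receptors (Tlr1, Tlr2, Tlr4 and Tlr6), 5 endosomal receptors (Tlr3, Tlr7, Tlr8, Tlr9 and Tlr13) and Unc93b1. They were chosen by symbol from 32098 gene rows, and all 10 were found.

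The samples are 8 mouse tumours of 4T1, a mammary carcinoma cell line, labelled wild type in genotype. An immune checkpoint inhibitor was given alone in 4 of them (ICI, replicates 1, 2, 3 and 4), and together with radiation in the other 4 (RI, replicates 1, 2, 4 and 5), so that every tumour received the inhibitor and none was untreated. The study's design text gives 3 replicates per group, where 4 are present here. The labels give no name for the inhibitor and no age, host strain, radiation dose or time, and do not say whether a tumour lay in the irradiated field. Nothing in them ties a tumour to an animal of its own. The p-values therefore refer to the spread among these 8 samples, part of which may be technical.

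The values are FPKM, fragment counts scaled to gene length and library size, and they allow levels to be compared between genes. The libraries held 27013100 to 42622700 fragments, as worked out from the spacing of small FPKM values. ICI 1 stood apart from the other ICI tumours, with a summed level of 8 neutrophil markers of 22217 FPKM against 213 to 664 FPKM in ICI 2, 3 and 4. RI 4 stood apart from the other RI tumours in that Gm55118, Rn18s-rs5 and Gm55094, of which Rn18s-rs5 is related to ribosomal RNA, took 60.7% of its summed FPKM. As FPKM is scaled to gene length, this is not their share of its fragments. TPM, used below as another scaling, divides by the summed FPKM, which was 717092 in RI 4 and 494399 or less in the other tumours. Results that rest on these libraries are given with and without them. Among 7 epithelial markers, Krt8, a keratin of simple epithelia, was at 698 ± 262 FPKM in ICI and 510 ± 188 FPKM in RI (SD, n = 4 each), and 0 of the 4 that were tested passed (1 was higher at an unadjusted limma p under 0.05 and 0 changed by voom). Epcam, an epithelial adhesion molecule named here after its values were seen, was at 0.203 FPKM or less in 5 of the 8 tumours and listed at 0 in RI 4.

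The comparison of RI with ICI shows what differed when radiation was added to the inhibitor. Tlr9 and Tlr3 of the endosome and Tlr4 of the cell surface were higher in RI, and no member was lower by the same test. Limma was fitted to log2(FPKM + 1) of the 13439 genes that reached 1 FPKM in 4 or more tumours, and a gene was called when its p, adjusted over all of them by Benjamini and Hochberg's method, was below 0.05. Each adjusted p below comes from that fit unless another is named. On this scale, changes of genes with low levels come out too small. All 10 members passed the filter, Tlr9 through its 4 RI values alone, so that its presence among the genes tested already required a difference. Called higher were 3 of 10 members, or 2 of 9 without Tlr9, where 11.1% of all genes tested were called higher. Called lower were 0 of 10, where 6.6% of all genes were. In both directions together 3 of 10 were called, where 17.7% of all genes were. At an unadjusted limma p under 0.05, 4 members were higher (3 of 9 without Tlr9) and 0 lower, where 20.4% and 15.5% of all genes were. Voom, a limma fit for counts, was run on the recovered fragments and also gave 4 higher and 0 lower. Without Tlr9 it gave 3 higher, where it called 18.1% of all genes higher and 8.22% lower. With array weights, which let limma weight libraries by quality, 5 were higher and 0 lower, where 20.3% and 11.8% of all genes were. Tlr9 was among these 5. Of all genes called, 62.6% were higher, against 48.0% with median centring and 90.0% after rescaling without mitochondrial and ribosomal RNA genes, which put the median log2 difference of all genes at 0.29. With TPM that median was 0.11. The 3 called members were called with median centring and after that rescaling too. The median log2 difference was 0.39 over the 10 members, 0.32 over the 9 without Tlr9 and 0.01 over all genes tested. The 4 RI values lay above the 4 ICI values for 4 of 10 members (Tlr3, Tlr4, Tlr8 and Tlr9). Without Tlr9, which passed the filter through its RI values alone, it was 3 of 9, where it was 16.7% of all genes. In whole tumours, a change in the number of cells that carry a receptor cannot be told apart from a change in RNA per cell.

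**Figure D1:**
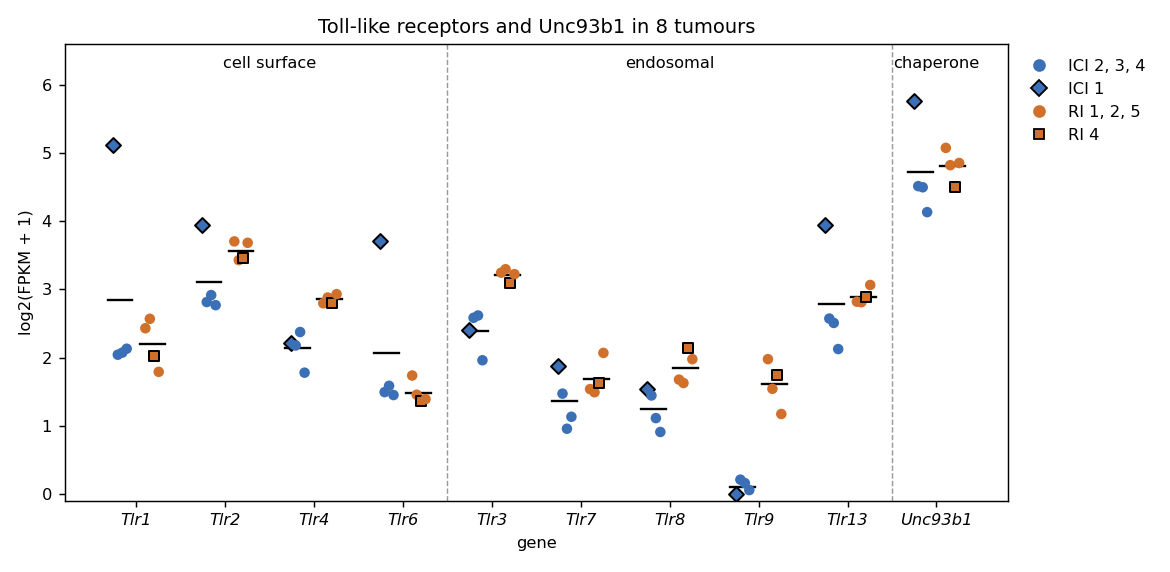
Levels of the 10 genes on the log2(FPKM + 1) axis, with 1 point per tumour, blue for ICI and orange for RI, and a bar at each group's mean. ICI 1 (diamond) lies far above the other ICI tumours for Tlr1, Tlr2, Tlr6, Tlr13 and Unc93b1, and the groups do not overlap for Tlr3, Tlr4, Tlr8 and Tlr9.

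Tlr9 encodes the endosomal receptor for DNA with unmethylated CpG. The gene lies on chromosome 9 (106222598 to 106226883, plus strand, GRCm38, ENSMUSG00000045322), and its exons overlap those of no other gene in GENCODE M21. It was at 0, 0.157, 0.118 and 0.0405 FPKM in ICI 1, 2, 3 and 4, and at 2.94, 1.91, 2.34 and 1.25 FPKM in RI 1, 2, 4 and 5. Every RI tumour was thus above every ICI tumour, and the lowest RI value was several times the highest ICI value. In recovered fragments these levels were 0, 22, 15 and 6 for ICI, against 276, 214, 296 and 186 for RI. The 0 in ICI 1 allows up to 3 fragments, or 0.0262 FPKM, by counting error alone. The group means were 0.0787 FPKM in ICI and 2.11 FPKM in RI, a ratio of 26.8, with SDs of 0.0713 and 0.709 (n = 4 each). Tlr9 rose by 1.50 on the log2 scale (SE 0.20, adjusted p = 0.0115). Leaving out any 1 library kept the call (adjusted p from 0.00916 to 0.0463). The filter was not reapplied in these fits, and without any 1 RI library Tlr9 would not have passed it. With replicate number as a block in the fit Tlr9 was not called (adjusted p = 0.0767). The size depends on how low values are treated, with a difference of 3.66 at a pseudocount of 0.1, 0.48 at a pseudocount of 5 and 5.44 by voom on the fragments.

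Cells known for Tlr9 are plasmacytoid dendritic cells, B cells and some macrophages. Siglech, a lectin of plasmacytoid dendritic cells, was at 0 in 4 of 8 tumours, and 0 of 4 tested markers of that list passed, with a summed level of 139 to 236 FPKM in ICI and 159 to 327 FPKM in RI, most of it from Bst2, which interferon also induces, at 158 ± 44.2 and 240 ± 77.8 FPKM (SD, n = 4 each; adjusted p = 0.190). The 7 B cell markers summed to 2.89 to 23.3 FPKM in ICI and 1.44 to 4.38 FPKM in RI, with 0 of 1 tested marker called, namely Cd79a, a chain of the B cell receptor, at 5.07 ± 3.21 and 2.31 ± 1.14 FPKM (adjusted p = 0.157). These counts of 0 were also 0 at an unadjusted limma p under 0.05 and by voom. Siglech was named after its values were seen. Of 8 macrophage markers 2 rose and 0 fell, where 11.1% of all genes were called higher and 6.6% lower. The 6 others did not pass. Cd68, named after its values were seen, was the 1 with a negative difference, at 60.6 ± 2.89 FPKM in ICI and 55.3 ± 12.6 FPKM in RI (SD, n = 4 each; adjusted p = 0.559). Adgre1, the F4/80 surface protein, was at 1.22 ± 0.171 FPKM in ICI and 7.68 ± 1.37 FPKM in RI (SD, n = 4 each; log2 difference 1.96, adjusted p = 0.00158). Mrc1, the mannose receptor, was at 7.68 ± 2.00 and 26.5 ± 13.3 FPKM (adjusted p = 0.0207), and did not pass without ICI 4 or without RI 2 (adjusted p of 0.0629 at most). C1qa, a complement subunit with the highest mean of the list, was at 135 ± 14.4 and 213 ± 103 FPKM (adjusted p = 0.224). The summed macrophage level ran from 218 to 271 FPKM in ICI and from 224 to 532 FPKM in RI. The part of these cells in the difference of Tlr9 was not tested.

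Tlr3 encodes the endosomal receptor for double-stranded RNA, which signals through TRIF. On chromosome 8 (45395665 to 45411080, minus strand, ENSMUSG00000031639), 381 of its 5207 exon bases are shared with the antisense model Gm45542, which is not among the rows used here, and reads of the 2 cannot be told apart without strand. Its levels were 4.32, 5.00, 5.14 and 2.89 FPKM in ICI 1, 2, 3 and 4, against 8.49, 8.83, 7.53 and 8.34 FPKM in RI 1, 2, 4 and 5. The groups did not overlap, and ICI 4 was the lowest tumour. The mean went from 4.34 ± 1.03 to 8.30 ± 0.550 FPKM (SD, n = 4 each), and Tlr3 rose by 0.82 on the log2 scale (SE 0.16, adjusted p = 0.0162). Without RI 2 the difference was 0.79 with an adjusted p of 0.0503, without the filter on low values the adjusted p was 0.0560, and with TPM it was 0.201.

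Promoter sequence is shown for the 2 endosomal receptors that were called, beside Tlr6, a surface receptor that was not called. Of the 2 windows of Tlr6, 1 holds the core of the interferon-stimulated response element, and that window is shown. The sequences are the 250 bases before a RefSeq start site, from RefSeq on GRCm38.p6, written 5′ to 3′ on the strand of the gene. Capitals mark matches on either strand to GAAA, any 2 bases and GAAA (the interferon element), TTC, any 3 bases and GAA (a STAT site), GGG, any 2 bases and TTTCC (NF-kB), or GAGGAA (PU.1 and other ETS factors). They are Tlr9 at chr9:106222348-106222597 (plus strand), Tlr3 at chr8:45410381-45410630 (minus strand) and Tlr6 at chr5:64959167-64959416 (minus strand, the downstream of 2 start sites). The window of the other Tlr6 start, nearer the 5′ end of the gene, had the STAT letters and no interferon element. The Tlr3 stretch lies inside the gene as given by GENCODE M21, whose 5′ end is at 45411080.
Tlr9: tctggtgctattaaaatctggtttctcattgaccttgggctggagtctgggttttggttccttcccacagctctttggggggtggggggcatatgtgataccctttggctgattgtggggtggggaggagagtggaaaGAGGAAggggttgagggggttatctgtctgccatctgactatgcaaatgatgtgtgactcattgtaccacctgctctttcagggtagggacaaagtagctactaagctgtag
Tlr3: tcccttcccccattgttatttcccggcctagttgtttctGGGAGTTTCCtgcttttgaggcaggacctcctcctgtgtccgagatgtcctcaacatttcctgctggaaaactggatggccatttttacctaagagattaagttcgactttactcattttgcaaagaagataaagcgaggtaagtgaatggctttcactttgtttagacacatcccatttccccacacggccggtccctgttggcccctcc
Tlr6: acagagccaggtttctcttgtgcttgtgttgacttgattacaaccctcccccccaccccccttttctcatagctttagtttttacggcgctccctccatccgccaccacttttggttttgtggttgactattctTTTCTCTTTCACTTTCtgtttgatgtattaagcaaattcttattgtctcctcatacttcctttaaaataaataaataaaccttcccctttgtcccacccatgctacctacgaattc
No match of one motif overlaps a match of another in these stretches. The Tlr9 stretch holds the ETS letters 112 bases before the start, and the Tlr3 stretch holds the NF-kB letters 211 bases before it. The Tlr6 stretch holds the interferon element in 2 overlapping matches, 116 and 110 bases before the start. With the 50 bases after the start included, such letters stand in 3.44% of 32851 windows for the interferon element, 8.30% for STAT, 1.63% for NF-kB and 28.3% for ETS. The table had windows for 7 of the 10 members and none for Tlr4, Tlr7 and Unc93b1. Of those 7, 1 had the interferon element (Tlr6) 1 the NF-kB letters (Tlr3), 3 the STAT letters (Tlr1, Tlr6 and Tlr8) and 4 the ETS letters (Tlr1, Tlr8, Tlr9 and Tlr13), while Tlr2 had none of them. A match describes the letters and shows no binding.

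Tlr8 and Tlr7 are neighbouring X-linked receptors for single-stranded RNA and its breakdown products. Tlr8 (chromosome X, 167242696 to 167264329, minus strand, ENSMUSG00000040522) was at 1.90, 1.72, 1.16 and 0.878 FPKM in ICI and at 2.20, 2.09, 3.39 and 2.94 FPKM in RI. The groups did not overlap, but the lowest RI value was close to the highest ICI value. The difference was 0.60 on the log2 scale (95% interval 0.17 to 1.04, adjusted p = 0.0593), just missing the threshold, and without ICI 1 it was 0.70 (adjusted p = 0.0352). By voom on the fragments Tlr8 was called (difference 1.02, adjusted p = 0.0393). It was not called without both ICI 1 and RI 4 (0.61, adjusted p = 0.0592), nor with any 1 library other than ICI 1 left out (adjusted p from 0.0734 to 0.149). Tlr7 (chromosome X, 167304929 to 167330558, minus strand, ENSMUSG00000044583) was at 2.67, 1.77, 0.941 and 1.19 FPKM in ICI, against 1.90, 1.81, 2.09 and 3.20 FPKM in RI, with ICI 1 inside the RI range. Its difference was 0.32 (95% interval −0.19 to 0.84, adjusted p = 0.337), so a change of up to about the size seen for Tlr3 lies within the interval.

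Tlr13, which senses bacterial ribosomal RNA, was the most abundant endosomal receptor in ICI 1. On chromosome X (106143204 to 106160493, plus strand, ENSMUSG00000033777) it was at 14.5, 4.95, 4.69 and 3.36 FPKM in ICI 1, 2, 3 and 4, and at 6.06, 6.02, 6.38 and 7.37 FPKM in RI. ICI 1 was higher than any RI tumour, and the other ICI tumours were lower than any RI tumour. With all 8 tumours the difference was 0.11 (95% interval −0.67 to 0.88, adjusted p = 0.848). Without ICI 1 it was 0.49 (SE 0.15, adjusted p = 0.0446), and without both ICI 1 and RI 4 it was 0.50 (adjusted p = 0.0557).

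Unc93b1 encodes the membrane protein that carries the nucleic acid receptors from the endoplasmic reticulum to endosomes. It had the highest FPKM of the 10 members in every tumour. On chromosome 19 (3935186 to 3949340, plus strand, ENSMUSG00000036908) the levels were 53.3, 21.9, 21.6 and 16.6 FPKM in ICI 1, 2, 3 and 4, and 32.7, 27.3, 21.8 and 27.9 FPKM in RI 1, 2, 4 and 5. ICI 1 was again the highest tumour, and RI 4 lay within the range of ICI 2, 3 and 4. The difference was 0.09 (95% interval −0.63 to 0.81, adjusted p = 0.865) with all tumours, 0.43 without ICI 1 (adjusted p = 0.0939) and 0.54 without both ICI 1 and RI 4 (adjusted p = 0.0342). Without both, 5 members were higher (Tlr2, Tlr3, Tlr4, Tlr9 and Unc93b1) and 0 lower, where 15.2% and 7.88% of all genes were called.

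Tlr4, the lipopolysaccharide receptor, was the surface receptor that rose. On chromosome 4 (66827584 to 66930284, plus strand, ENSMUSG00000039005) it was at 3.66, 3.53, 4.19 and 2.43 FPKM in ICI 1, 2, 3 and 4, and at 5.95, 6.37, 5.99 and 6.63 FPKM in RI 1, 2, 4 and 5. The RI tumours lay close together and all above the ICI tumours, and ICI 1 did not stand apart. The mean was 3.45 ± 0.737 FPKM in ICI and 6.23 ± 0.322 FPKM in RI (SD, n = 4 each), a log2 difference of 0.72 (SE 0.15, adjusted p = 0.0174). It was 0.60 without ICI 4 (adjusted p = 0.0532) and 0.71 without RI 2 (adjusted p = 0.0545), while the adjusted p was 0.0588 without the filter and 0.262 with TPM. Across the 8 tumours Tlr4 and Tlr3 had a Pearson correlation of 0.984 on the log2 scale, which includes the difference between the groups that both share.

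Tlr2 pairs with Tlr1 or Tlr6 to bind bacterial lipopeptides. Tlr2 (chromosome 3, 83836272 to 83841767, minus strand, ENSMUSG00000027995) was at 14.5 FPKM in ICI 1 and at 6.04, 6.55 and 5.82 FPKM in ICI 2, 3 and 4, against 12.0, 9.78, 9.96 and 11.9 FPKM in RI. As with Tlr13, ICI 1 was above all RI tumours and the other ICI tumours were below all of them. The difference was 0.45 (95% interval −0.11 to 1.02, adjusted p = 0.224) with all tumours and 0.73 without ICI 1 (SE 0.13, adjusted p = 0.00990). Without both ICI 1 and RI 4 it was 0.77 (adjusted p = 0.0106).

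The partners of Tlr2 had another pattern. Tlr1 (chromosome 5, 64924679 to 64933563, minus strand, ENSMUSG00000044827) was at 33.6 FPKM in ICI 1, at 3.12, 3.21 and 3.38 FPKM in ICI 2, 3 and 4, and at 4.39, 4.93, 3.06 and 2.46 FPKM in RI. Tlr6 (chromosome 5, 64952031 to 64960097, minus strand, ENSMUSG00000051498) was at 12.1 FPKM in ICI 1, at 1.82, 2.00 and 1.73 FPKM in ICI 2, 3 and 4, and at 2.33, 1.74, 1.58 and 1.62 FPKM in RI. For both, ICI 1 was far above the 7 other tumours, whose groups overlapped. The difference of Tlr1 was −0.64 (95% interval −2.16 to 0.89, adjusted p = 0.520) with ICI 1 and 0.12 without it (95% interval −0.32 to 0.56, adjusted p = 0.679). That of Tlr6 was −0.57 (95% interval −1.65 to 0.50, adjusted p = 0.411) with ICI 1 and −0.02 without it (95% interval −0.38 to 0.33, adjusted p = 0.931). The genes are close relatives, with 454 words of 50 bases in common, or 13.6% of those of Tlr1 and 12.3% of those of Tlr6, so the split of reads between them is uncertain. No other pair of the receptors shared such a word.

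**Figure D2:**
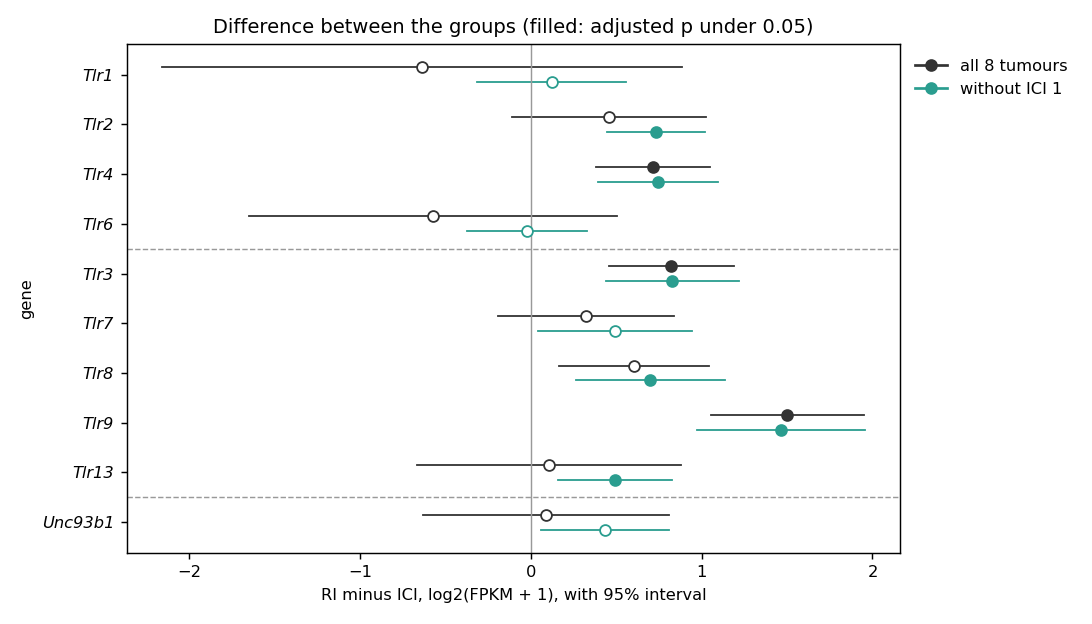
Difference RI minus ICI for each of the 10 genes on the log2(FPKM + 1) axis with its 95% interval, with all 8 tumours (dark) and without ICI 1 (green). Filled points passed the threshold, 3 with all tumours and 6 without ICI 1, and the intervals of Tlr1 and Tlr6 become much narrower without that library.

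ICI 1 exceeded the mean of ICI 2, 3 and 4 by a factor of 10.4 for Tlr1, 6.55 for Tlr6, 3.34 for Tlr13, 2.66 for Unc93b1 and 2.36 for Tlr2. The factor was 2.05 for Tlr7, 1.51 for Tlr8, 1.08 for Tlr4 and 0.995 for Tlr3, and Tlr9 was at 0 there. In the same library S100a9, a neutrophil protein, was at 12310 FPKM against 134 to 352 FPKM in the other ICI tumours. Of 7 tested neutrophil markers 0 rose and 2 fell in RI, S100a9 (3246 ± 6044 to 20.3 ± 17.8 FPKM, SD, n = 4 each, adjusted p = 0.0380) and S100a8 (1716 ± 3223 to 8.74 ± 6.25 FPKM, adjusted p = 0.0456). At an unadjusted limma p under 0.05, 6 of the 7 were lower. Without ICI 1, 6 of the 7 were called lower. S100a9 and S100a8 passed without ICI 1 or without ICI 3, and neither passed with any other library left out (adjusted p of 0.104 at most) or by voom. The summed neutrophil level was at most 80.6 FPKM in RI, below ICI 2, 3 and 4 as well. ICI 1 also had the highest sums of endothelial markers (301 FPKM against 18.9 to 44.5 FPKM in ICI 2, 3 and 4), B cell markers (23.3 against 2.89 to 5.66 FPKM), T cell markers (21.03 against 7.71 to 13.5 FPKM) and conventional dendritic cell markers (14.7 against 6.10 to 6.77 FPKM). The part of these cells in the levels of the receptors was not tested. Without ICI 1, 6 members were higher in RI (Tlr2, Tlr3, Tlr4, Tlr8, Tlr9 and Tlr13) and 0 lower, where 11.7% and 8.29% of all genes were called. Leaving Tlr9 aside, 5 of 9 were higher.

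**Figure D3:**
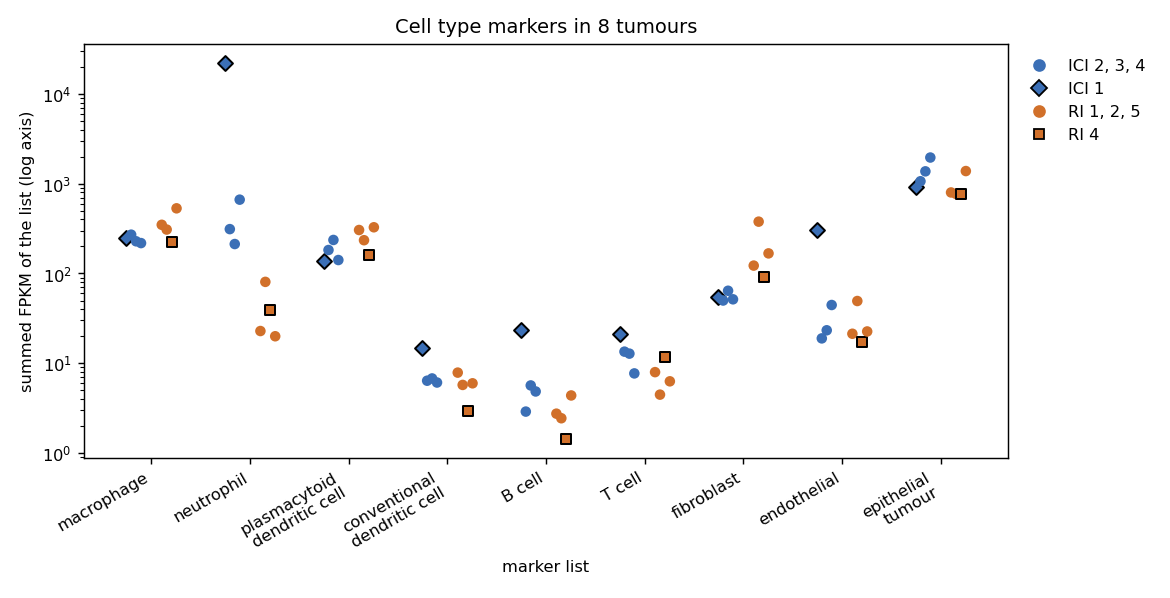
Summed FPKM of each list of cell type markers on a log axis, with 1 point per tumour. ICI 1 (diamond) has 22217 FPKM of neutrophil markers against 213 to 664 FPKM in the other ICI tumours, and the macrophage, plasmacytoid dendritic cell and fibroblast sums reach their highest values in RI tumours. The plasmacytoid dendritic cell sum comes mostly from Bst2, and its groups overlap, as do those of the macrophage sum.

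The endosomal and surface classes were compared as the mean log2(FPKM + 1) of their receptors in each tumour, as a description with no test. The endosomal mean was 1.58 ± 0.303 in ICI and 2.25 ± 0.0681 in RI (SD, n = 4 each), and all 4 RI tumours (2.15 to 2.30) lay above all 4 ICI tumours (1.24 to 1.95). The surface mean was 2.54 ± 0.812 in ICI and 2.53 ± 0.119 in RI, and ICI 1, at 3.75, was above every other tumour. The endosomal class thus differed by 0.67 and the surface class by −0.01. Without Tlr9, which passed the filter through its RI values alone, the endosomal difference over all tumours was 0.46. The groups then overlapped, at 1.53 to 2.44 in ICI and 2.31 to 2.58 in RI. With Tlr9 kept and ICI 1 left out, the endosomal and surface differences were 0.80 and 0.39, and each class then had its RI values above its ICI values. With Tlr9 left out as well, the endosomal difference was 0.63. Per tumour, the endosomal minus the surface mean was −1.80, −0.48, −0.77 and −0.80 in ICI 1, 2, 3 and 4, against −0.42, −0.43, −0.12 and −0.15 in RI 1, 2, 4 and 5. This contrast was 0.68 higher in RI with all tumours, 0.47 without Tlr9, 0.40 without ICI 1 and 0.23 without both ICI 1 and Tlr9. Without Tlr9 the groups overlapped, with ICI at −0.11 at most and RI at −0.35 at least. The summed FPKM of the endosomal receptors was 0.366, 0.938, 0.755 and 0.626 of that of the surface receptors for ICI, and 0.874, 0.905, 1.06 and 1.02 for RI. ICI 2 lay within the RI range by this ratio. Of the 5 endosomal receptors 2 were called higher, and of the 4 surface receptors 1, with 0 lower in either class, where 11.1% of all genes were called higher and 6.6% lower. Without Tlr9, which passed the filter through its RI values alone, it was 1 of 4 in each class.

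**Figure D4:**
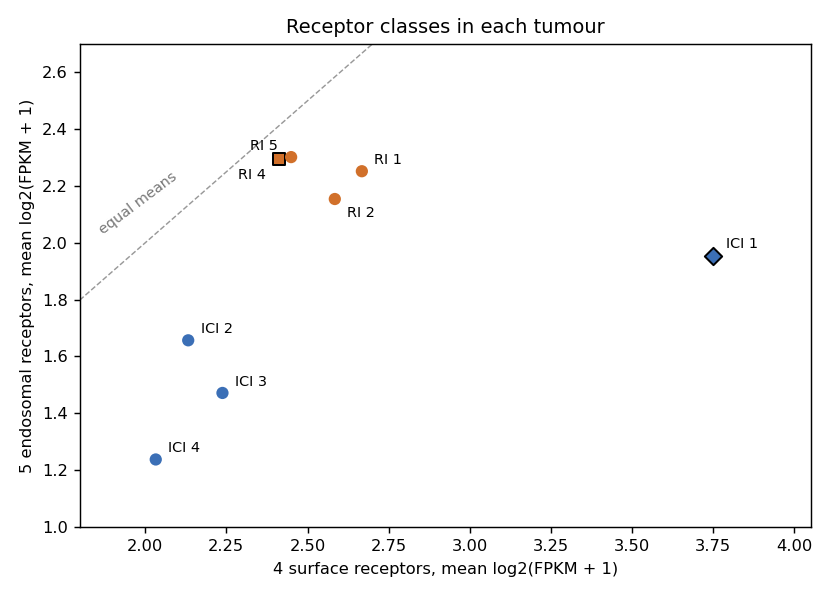
Mean log2(FPKM + 1) of the 5 endosomal receptors against that of the 4 surface receptors, with 1 labelled point per tumour and a dashed line where the means are equal. The RI tumours lie together above all ICI tumours on the endosomal axis, which includes Tlr9 and on which the groups overlap without it. ICI 1 lies apart on the surface axis at 3.75.

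By median FPKM, the order in RI was Tlr2 (10.9), Tlr3 (8.42), Tlr13 (6.22), Tlr4 (6.18), Tlr1 (3.72), Tlr5 (2.78), Tlr8 (2.57), Tlr9 (2.13), Tlr7 (2.00), Tlr6 (1.68), Tlr12 (0.614) and Tlr11 (0.111). Among these the ranges of Tlr2 and Tlr3 did not overlap, nor did those of Tlr3 and Tlr13, nor those of Tlr4 and Tlr1, nor those of Tlr6 and Tlr12, nor those of Tlr12 and Tlr11. Tlr13 and Tlr4 overlapped, as did each pair of neighbours from Tlr1 to Tlr6. In ICI the order was Tlr2 (6.30), Tlr13 (4.82), Tlr3 (4.66), Tlr4 (3.59), Tlr1 (3.29), Tlr5 (1.92), Tlr6 (1.91), Tlr7 (1.48), Tlr8 (1.44), Tlr12 (0.662), Tlr11 (0.233) and Tlr9 (0.0790). There, of the neighbours, Tlr1 and Tlr5 did not overlap, nor did Tlr8 and Tlr12, and all others did. Tlr9 was thus the lowest receptor in ICI and the eighth of 12 in RI. Tlr5, Tlr11 and Tlr12 are not members. Tlr5, the flagellin receptor, was at 2.01 ± 0.671 FPKM in ICI and 2.84 ± 0.372 FPKM in RI (SD, n = 4 each; log2 difference 0.37, adjusted p = 0.175). Tlr11 and Tlr12, which bind profilin of parasites, were below the filter, at 0.265 ± 0.128 and 0.104 ± 0.0844 FPKM for Tlr11 (two-sided exact permutation p = 0.0571 over 70 regroupings) and 0.615 ± 0.247 and 0.711 ± 0.486 FPKM for Tlr12 (exact permutation p = 0.857). The smallest p that this test can give is 0.0286.

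Genes that act with the receptors were taken from 9 lists with 93 genes. Of these 83 were tested, 14 rose and 4 fell, where 11.1% of all genes tested were called higher and 6.6% lower. Among the 14 that rose, 7 were interferon targets. The counts by list below, and those of the marker lists, stand beside the same shares. The median log2 difference of the 83 was 0.22. Of 6 co-receptors of the surface receptors 0 rose and 1 fell, namely Cd14, which hands lipopolysaccharide to Tlr4, at 49.1 ± 14.1 FPKM in ICI and 25.6 ± 11.0 FPKM in RI (SD, n = 4 each; log2 difference −0.95, adjusted p = 0.0498). Its groups overlapped. Among 9 genes of receptor folding and trafficking 2 rose and 0 fell. Slc15a4, a lysosomal histidine transporter needed for signalling by Tlr7 and Tlr9, was at 2.54 ± 0.359 and 4.03 ± 0.520 FPKM (adjusted p = 0.0380), and Slc29a3, a lysosomal nucleoside transporter, was at 3.72 ± 0.427 and 6.50 ± 1.15 FPKM (adjusted p = 0.0205). Hsp90b1, the receptor chaperone gp96 and the most abundant gene of that list, was at 184 ± 67.9 and 235 ± 11.1 FPKM (adjusted p = 0.309). Of 8 tested endolysosomal proteases and nucleases, which cut the receptors or their ligands, 0 passed, with 2 higher and 0 lower at an unadjusted limma p under 0.05 and 2 higher by voom. The most abundant of them, the protease Ctsl, was at 240 ± 79.7 and 319 ± 158 FPKM (adjusted p = 0.479).

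Of 3 tested adaptors 0 passed, also at an unadjusted limma p under 0.05 and by voom, and Myd88, the adaptor of most receptors, was at 26.3 ± 13.3 FPKM in ICI and 19.5 ± 2.87 FPKM in RI (SD, n = 4 each; adjusted p = 0.447). Of 16 kinases and ubiquitin ligases 3 rose and 1 fell. Traf3, a ubiquitin ligase on the branch to interferon, was at 9.61 ± 1.60 and 15.8 ± 1.62 FPKM (adjusted p = 0.0207), Map3k7, the kinase TAK1, at 8.75 ± 0.348 and 12.8 ± 1.31 FPKM (adjusted p = 0.0266), and Traf6, the ubiquitin ligase downstream of MyD88, at 3.06 ± 0.412 and 4.57 ± 0.497 FPKM (adjusted p = 0.0424). Tab1, a partner of TAK1, fell, with 13.5 ± 1.97 FPKM in ICI and 8.59 ± 1.79 FPKM in RI (adjusted p = 0.0430). Irak1, the most abundant gene of the list, was at 35.5 ± 4.93 and 29.0 ± 3.52 FPKM (adjusted p = 0.218). Among 10 transcription factors Irf7, which acts below Tlr7 and Tlr9 and is itself induced by interferon, was at 16.3 ± 4.14 and 47.3 ± 23.2 FPKM (log2 difference 1.40, adjusted p = 0.0263). Irf3, which acts below Tlr3 and Tlr4, fell by 0.80 on the log2 scale, with 20.9 ± 5.96 FPKM in ICI and 11.5 ± 2.14 FPKM in RI (adjusted p = 0.0309). Irf1, the most abundant of them, was at 52.4 ± 13.1 and 61.8 ± 24.5 FPKM (adjusted p = 0.671). Of 12 tested negative regulators 1 rose, the deubiquitinase Cyld, at 4.21 ± 0.585 and 6.66 ± 0.740 FPKM (adjusted p = 0.0263), and 0 fell. Nfkbia, the inhibitor of NF-kB, was at 135 ± 29.5 and 105 ± 27.3 FPKM (adjusted p = 0.308).

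Of 9 tested interferon targets 7 rose and 0 fell. The median log2 difference over the 9 was 1.44. The largest of the differences named here was 2.22, for Rsad2, which encodes viperin, an inhibitor of viruses (adjusted p = 0.0127), followed by Ifit1, which binds foreign RNA, at 1.62 (adjusted p = 0.0130), the interferon signalling brake Usp18 at 1.55 (adjusted p = 0.0117) and Ifit2 at 1.44 (adjusted p = 0.0115). Isg15, a ubiquitin-like modifier and the most abundant of them, was at 46.5 ± 15.6 and 82.8 ± 30.6 FPKM (SD, n = 4 each; adjusted p = 0.117). Of 10 tested cytokine targets of NF-kB 0 rose and 1 fell, with a median of −0.22. That one, the chemokine Ccl3, was at 6.90 ± 2.16 in ICI and 3.88 ± 0.404 FPKM in RI (adjusted p = 0.0483). Ccl5, the most abundant of the list, was at 20.1 ± 7.51 and 40.8 ± 23.8 FPKM (adjusted p = 0.167). Among the pathway genes described, 15 were called, and leaving out ICI 1 kept 11 of these calls, ICI 2 or ICI 3 kept 10, RI 4 kept 9 and RI 5 kept 7. After the rescaling without mitochondrial and ribosomal RNA genes 11 passed, and the 4 that had fallen (Ccl3, Cd14, Irf3 and Tab1) did not. Without ICI 4, RI 1 or RI 2 the 4 interferon targets Rsad2, Ifit1, Usp18 and Ifit2 passed and the 11 others did not (adjusted p of 0.116 at most). After removal of the trends on gene length and GC content 9 of the 15 passed, and so did the members Tlr3, Tlr4 and Tlr9, where 10.9% of all genes were called higher and 9.4% lower.

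**Figure D5:**
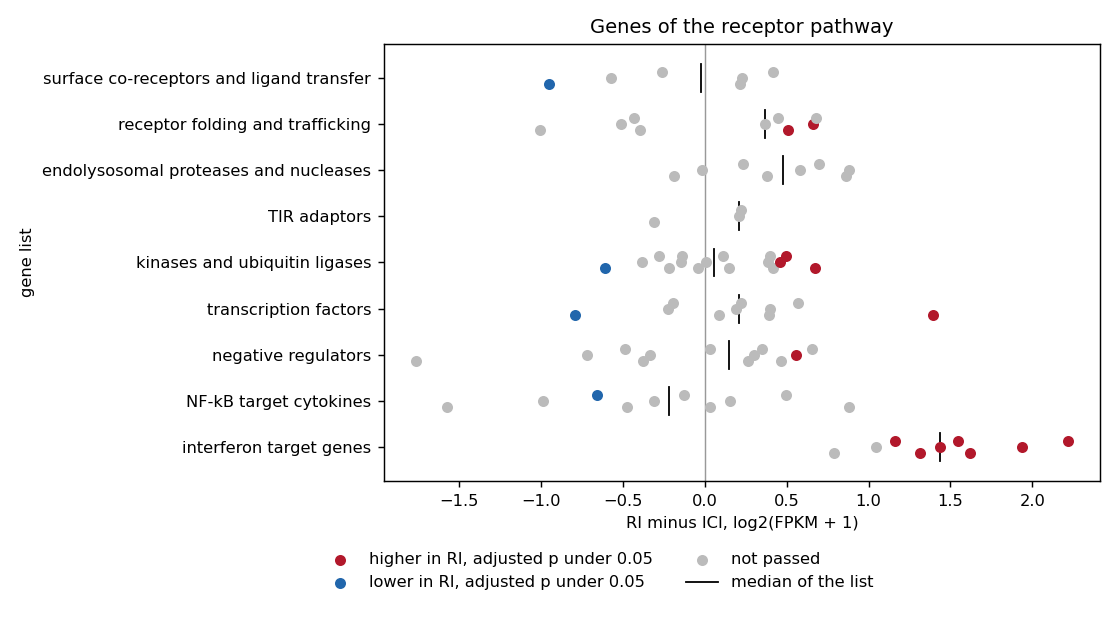
Log2 difference RI minus ICI of the 83 tested pathway genes by list, with 1 point per gene, red where called higher, blue where called lower and grey where not passed, and a bar at the median of each list. The interferon target genes lie to the right of 0, with a median of 1.44, and the other lists have medians between −0.22 and 0.48.

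Among the other marker lists, 0 of 2 tested conventional dendritic cell markers passed (also 0 at an unadjusted limma p under 0.05 and by voom), with Batf3, a factor of that lineage, at 3.36 ± 0.554 FPKM in ICI and 2.19 ± 0.989 FPKM in RI (SD, n = 4 each; adjusted p = 0.155). Their sum ran from 6.10 to 14.7 FPKM in ICI and 2.92 to 7.87 FPKM in RI. Of 3 tested T cell markers 0 rose and 1 fell, Trac, a chain of the T cell receptor, from 5.49 ± 1.37 to 2.26 ± 0.897 FPKM (adjusted p = 0.0211), which did not pass without RI 1, RI 2 or RI 5 (adjusted p of 0.0584 at most). Fibroblasts also carry Tlr3 and Tlr4, and of 7 fibroblast markers 3 rose and 0 fell. These were Col1a1, a collagen chain, at 22.9 ± 5.17 and 111 ± 88.1 FPKM (adjusted p = 0.0254), Col1a2 at 9.81 ± 1.00 and 40.0 ± 31.2 FPKM (adjusted p = 0.0330), and Lum, a matrix proteoglycan, at 0.498 ± 0.445 and 3.39 ± 2.70 FPKM (adjusted p = 0.0334). Each of the 3 lost its call when one or another library was left out, with adjusted p of up to 0.0938, and all 3 did without ICI 4 and without RI 5. The 4 others did not pass. Differences were positive for 6 of the 7 and negative for Pdgfrb, at 6.08 ± 4.26 FPKM in ICI and 5.52 ± 2.30 FPKM in RI (SD, n = 4 each; adjusted p = 0.986). Pdgfra was at 5.05 ± 1.94 and 6.68 ± 0.624 FPKM (adjusted p = 0.194). Pdgfra and Pdgfrb were named after their values were seen. Of 4 tested endothelial markers 0 passed, with 1 lower at an unadjusted limma p under 0.05 and 0 by voom, and Cldn5, a tight junction protein, was at 58.1 ± 94.8 and 5.19 ± 3.39 FPKM (adjusted p = 0.217). The part of these cells in the receptor levels was not tested.

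The genes whose log2 levels followed each receptor most closely over the 8 tumours were looked up among all genes tested, and the correlations include the difference between the groups and the height of ICI 1. For Tlr9 they were Phf20 (Pearson r = 0.989), Nr2c2 (0.987) and Nup210 (0.984), for Tlr3 Dcaf5 (0.993), Nemp1 (0.990) and Atf1 (0.990), and for Tlr4 AU040320 (0.989), Myh9 (0.988) and Cul4a (0.987). The closest gene to Tlr6 was Fgr (0.999), a kinase of myeloid cells, and to Tlr1 it was Sema4a (0.991), in the pattern with 1 high tumour. Tlr1 and Tlr6 correlated at 0.980 over the 8 tumours and at 0.492 without ICI 1, whereas Tlr13 and Tlr4 correlated at 0.272 with that tumour and at 0.956 without it.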

How the data were processed

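RNA of 8 tumours was sequenced. Each title states the group and replicate. The authors deposited FPKM values, with a column for each tumour. Per the submitters' processing notes, reads were processed with HISAT2 and GRCm38 (mm10), while how fragments were counted, with which strand setting, gene models and filters, is not stated in any source at hand. Coordinates and exon lengths come from GENCODE M21 (GRCm38), in which 31407 of the 32098 row identifiers were found.

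Fragments were recovered from FPKM multiplied by exon length. Of the values of up to 50 fragments, 98.6% to 98.8% lay within 0.05 of a whole number. They served for depth, for the fragments of Tlr9 and for 1 alternative fit. The main test was limma 3.58.1 (trend and robust variance) in R 4.3.3 on log2(FPKM + 1), two-sided, with Benjamini-Hochberg adjustment over 13439 genes, and it was tested on simulated data. Genes below the filter were compared by an exact permutation test.

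Named are all members, Tlr5, Tlr11 and Tlr12. From each list they are every called gene if 4 or fewer, otherwise the 4 with the smallest p, and the most abundant gene. For receptors, the 3 most correlated genes could be named. The members, lists and settings were chosen with earlier results of these data known, so that no count over them is independent evidence. Settings tried were other filters, pseudocounts, scalings, weights, a block, left-out libraries, a length and GC correction (lowess, span 0.3) and voom. The labels give no batch. The level of 1 marker gene is not reported here.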

Additional observations from a re-analysis of the deposited data

Results flagged for a closer look

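Of 28 groups of 4 values tested for a sample far from the others, 5 had one, all in ICI and all in ICI 1. Chance gives about 1 in 20 groups where groups are independent. These 5 share 1 library, so they cannot be counted as 5 separate events against that rate. Tlr1 was at 33.6 FPKM there, with the next ICI tumour at 3.38 FPKM. Tlr6 was at 12.1 FPKM, with the next at 2.00 FPKM. Tlr2 was at 14.5 FPKM, with the next at 6.55 FPKM. Tlr13 was at 14.5 FPKM, with the next at 4.95 FPKM. Unc93b1 was at 53.3 FPKM, with the next at 21.9 FPKM. The neutrophil markers of that tumour summed to 22217 FPKM, and its sums of endothelial (301 FPKM), B cell (23.3 FPKM), T cell (21.03 FPKM) and conventional dendritic cell markers (14.7 FPKM) were also the highest of the 4 ICI tumours. The part of these cells in the receptor values was not tested.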

How the results depend on the processing

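Of the 10 members 3 were called higher, and 5 after rescaling without mitochondrial and ribosomal RNA genes, with array weights or without ICI 1 and RI 4, 1 with no filter, TPM or a mean of at least 5 FPKM (5 members tested). Leaving out 1 library gave 1 (without RI 2) to 6 (without ICI 1), and 0 were lower in every fit. The member called without RI 2 was Tlr9. The filter was not reapplied when a library was left out, and Tlr9 would not pass it without any 1 RI library. Of the endosomal receptors 2 were called, and 1 with no filter, TPM or the mean filter, and 1 to 4 with 1 library left out. Of the surface receptors 1 was called, and 0 with no filter, TPM or the mean filter, 2 with rescaling, array weights or without ICI 1 and RI 4, and 0 to 2 with 1 library left out. The endosomal minus surface difference of 0.68 was 1.63 by voom, 1.24 and 0.31 at pseudocounts of 0.1 and 5, 0.35 without ICI 1 and RI 4, and 0.40 to 0.84 with 1 library left out.

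Of the pathway genes 14 were higher, and 4 with no filter, 8 with TPM, 22 with quantile normalization or voom, 37 with rescaling, 30 with array weights, 23 without ICI 1 and RI 4 and 4 to 15 with 1 library left out. The number of all genes called higher also grew in several of these settings, from 1486 to 4471 with rescaling and 2729 with array weights. It was 2409 by voom, 2044 without ICI 1 and RI 4 and 1810 with quantile normalization. The 4 lower became 0 with no filter or rescaling, 1 with TPM or without ICI 1 and RI 4, 8 with quantile normalization, 10 with upper-quartile scaling or median centring, 7 with array weights and 0 to 2 with 1 library left out. Of all genes 2373 were called, and 241 with no filter, 280 with TPM, 4967 with rescaling, 4319 with array weights and 336 to 2693 with 1 library left out.

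Tumours with the same replicate number did not deviate together, with correlations of −0.0923, −0.120 and −0.124, and no ICI tumour correlated best with its own number. With a replicate block 0 members (0 endosomal, 0 surface), 2 pathway genes higher, 0 lower and 22 of all genes were called, and with the length and GC correction added 0, 0, 0, 0, 0 and 3.

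The sign turned for Tlr1 (0.20 with array weights, 0.18 without ICI 1 and RI 4, −0.90 to 0.12 with 1 library left out), Tlr6 (0.018 without ICI 1 and RI 4), Tlr13 (−0.044 with the block, −0.0087 with the length and GC correction, −0.17 with both, −0.12 to 0.49 with 1 library left out), Unc93b1 (−0.00085 with the block, −0.11 to 0.43 with 1 library left out) and Tlr7 (−0.0092 with the block and correction). It also turned for Ctsl (−0.0081 with array weights, −0.11 with the block and correction), Myd88 (0.0067 with rescaling, 0.074 without ICI 1 and RI 4), Irak1 (0.042 with rescaling), Krt8 (0.10 with quantile normalization) and Irf1 (−0.039 to 0.41 with 1 library left out). None of these 10 genes was called with all tumours, and the cause was not tested. At 6 to 22 fragments in 3 ICI tumours and 0 in the fourth, depth limits the size of the Tlr9 difference.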
